A study of Arabidopsis thaliana with 7 samples.

Results

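The comparison described here sets the wrky18 wrky40 double mutant against wild-type Col-0, both sampled after Pst-DC3000. It rests on 2 of the 7 arrays of the series, 1 array a side, chosen by genotype and treatment in the sample labels. All 22746 non-control probe sets of the array were compared, of which 13513 carry 1 gene name in the annotation used here, 503 carry several and 8730 carry none. After inoculation, 216 probe sets had a signal at least 2-fold higher in the double mutant and 32 at least 2-fold lower. With 1 array a side there is no replicate error, no p-value and no standard error, so each ratio compares these particular RNA samples and not the genotypes in general. In whole rosettes, fewer cells of a type and less RNA per cell cannot be told apart.

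Whole rosettes of Arabidopsis thaliana were harvested at 14 days of age, from soil that for all groups had been treated with Osmocote fertiliser and the insecticide Confidor. Their RNA was hybridised to 1-colour Affymetrix ATH1 arrays. The 5 mutants of the series are described as T-DNA knockouts, of WRKY18, WRKY40, WRKY60, WRKY53 and of WRKY18 and WRKY40 together, and were sampled only after Pst-DC3000. Col-0 was sampled after Pst-DC3000 and after MgCl2, the mock treatment, and there is no mock array of the double mutant. The position of the insertions, the number of plants pooled, the dose of bacteria and the time to harvest are not given in the sources used here. A difference between the 2 arrays can therefore not be told apart from a difference that existed before inoculation.

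WRKY proteins are plant transcription factors that bind the W-box, a short DNA element common in promoters of defence genes. WRKY18, WRKY40 and WRKY60 form group II-A, named in the title of the series, whose members carry a leucine zipper and can pair with each other. In Arabidopsis, WRKY18 and WRKY40 are known as partly redundant regulators of defence, each able to cover in part for loss of the other. Pst-DC3000 is a strain of Pseudomonas syringae, a leaf pathogen that makes coronatine, a mimic of the hormone jasmonate.

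Signals are MAS5 intensities on a linear scale. Signals under a floor of 22.1 were set to it before ratios were taken, because low MAS5 signals vary widely; a fold that meets this floor is written as at least that fold. On the floored scale the median log2 ratio over all probe sets was 0, the 5th percentile -0.45 and the 95th percentile 0.44. Both arrays lay at or under the floor for 8895 probe sets, 39.1% of the total, which therefore could not differ. The scaling of the 2 arrays was close: their 40th percentiles of signal were 20.3 in the wild type and 20.5 in the double mutant. For the 9 probe sets of bacterial spike-in RNA the median log2 ratio was -0.01, from -0.21 to 0.18. The 25S ribosomal RNA control had a signal of 2947 on the double mutant array, the highest apart from wrky60, and 1865 on the wild-type array, and its part in the results was not tested. The wrky60 array stood apart, with a median spike-in signal of 1077 against 121 to 204 on the other arrays. Its values are given but kept out of the counts over called probe sets and out of the median of the other mutants. It does enter the floor, the mean signal over the 7 arrays used for gene lists, and ranks of single genes stated over all arrays. The 3 prime to 5 prime signal ratio, a sign of RNA integrity, was available for 6 control sets of actin, GAPDH and ubiquitin. It ran from 1.098 to 6.95 in the wild type and from 0.892 to 7.91 in the double mutant, both highest for 1 actin set. It was lower in the double mutant for 4 of the 6 sets and higher for the other two, and its part in the results was not tested. The leaf origin of the RNA could be checked with the nuclear photosynthesis genes, which had signals of 962 to 3046 on the 2 arrays. The root marker EXPA7 was far under the floor at 8.17 and 7.88, while the flower, seed, guard cell, trichome and phloem marker lists had no probe set with a single gene name.

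The lowest 2 ratios of the whole comparison belonged to probe sets for which the annotation names no gene, and each was also low in 1 single mutant. Probe set 261892_at had a signal of 16.5 in the double mutant and 11.7 in wrky40. On the other arrays it had 310.4 in the wild type after Pst, 230.0 in the mock sample, 288 in wrky18, 299 in wrky53 and 231 in wrky60. It was therefore at the floor in the 2 lines labelled as lacking WRKY40 and at least 14.1-fold higher in the wild type. Probe set 253485_at had a signal of 20.3 in the double mutant and 1.83 in wrky18. Elsewhere it had 176 in the wild type after Pst, 189 in the mock sample, 328 in wrky40, 131 in wrky53 and 124 in wrky60. It was at the floor in the 2 lines labelled as lacking WRKY18, and at least 7.97-fold higher in the wild type. No named probe set stands for WRKY18 or WRKY40, so the targeted transcripts were not checked by name, and no gene is assigned here to these probe sets.

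**Figure D1:**
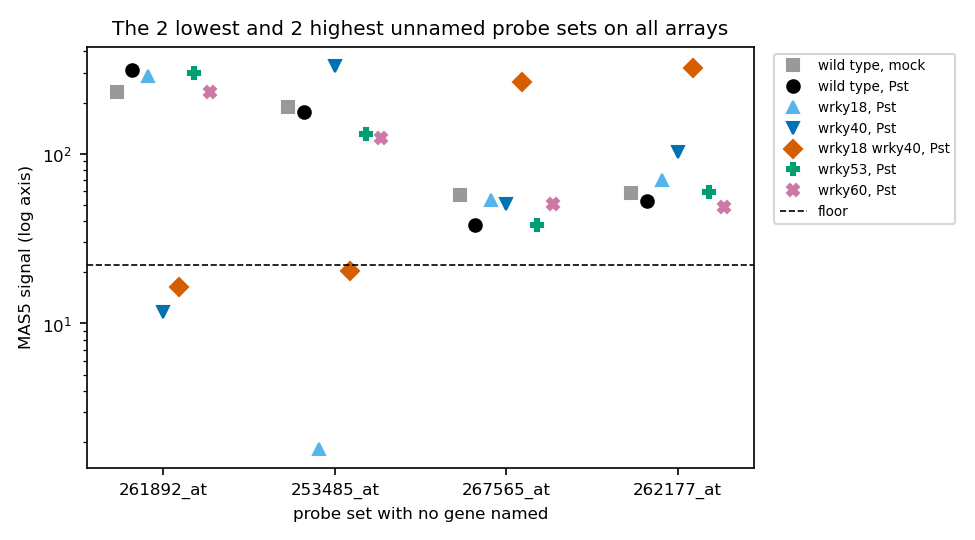
MAS5 signal (log axis) of the 2 lowest and 2 highest probe sets with no gene named, 1 point per array, with the floor of 22.1 as a dashed line. Probe set 261892_at lies under the floor on the wrky40 and double mutant arrays, 253485_at on the wrky18 and double mutant arrays, while 267565_at and 262177_at are highest in the double mutant.

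Among probe sets with higher signals, the largest unnamed ratio was that of 267565_at, with 263 in the double mutant against 37.8 in the wild type, a 6.97-fold difference. It had 57.0 in the mock sample, 53.3 in wrky18, 50.4 in wrky40, 37.8 in wrky53 and 50.7 in wrky60. Probe set 262177_at had 321 in the double mutant and 52.8 in the wild type, a 6.07-fold difference, with 58.3 in the mock sample, 69.6 in wrky18, 103 in wrky40, 59.7 in wrky53 and 48.6 in wrky60. In both cases the double mutant stood clear of every other array. Both arrays of the comparison were above the floor for these probe sets.

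The counts were one-sided, and the higher calls came from all classes of mean signal above the floor. Higher probe sets made up 0.95% of those compared and lower probe sets 0.141%. By the same count against the same wild-type array, wrky18 had 0.11% higher and 0.317% lower, wrky40 had 0.0879% and 0.101%, and wrky53 had 0.158% and 0.497%. All 4 comparisons share that array and so depend on each other, and no difference between them was tested. Of the 216 higher probe sets, 54 were at least 3-fold, 18 at least 4-fold and 5 at least 5-fold higher. Of the 32 lower ones, 5 were at least 3-fold and 2 at least 4-fold lower, the last being the pair without names described above.

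Ratios were wider at low signal, as the middle 50% of log2 ratios spanned 0.51 in probe sets with a mean signal of 1 to 2 times the floor and 0.32 in those at 16 times the floor or more. Higher probe sets made up 1.38%, 2.32%, 1.47%, 1.72% and 0.847% of 5 successive classes of mean signal, from 1 to 2 times the floor up to 16 times or more. The corresponding shares of lower probe sets were 0.471%, 0.232%, 0.251%, 0.152% and 0. The floor limits calls in the lowest class, where a call needs at least 44.2 on 1 array while the mean stays under 44.2. These shares therefore cannot be set against the spread. In the brightest class, 17 of 2006 probe sets were higher and 0 were lower. Probe sets with no gene name held 118 of the 216 higher calls and 20 of the 32 lower ones, and those with several names held 3 and 1. Higher calls made up 1.35% of the unnamed probe sets, 0.703% of those with 1 name and 0.596% of those with several. Lower calls made up 0.229%, 0.0814% and 0.199%. Unnamed probe sets thus held more of both. They were also brighter than those with 1 name, with a mean signal no lower than the floor in 67.5% against 53.4%. Among probe sets at or above the floor the shares of higher calls were 2.00% and 1.32%.

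**Figure D2:**
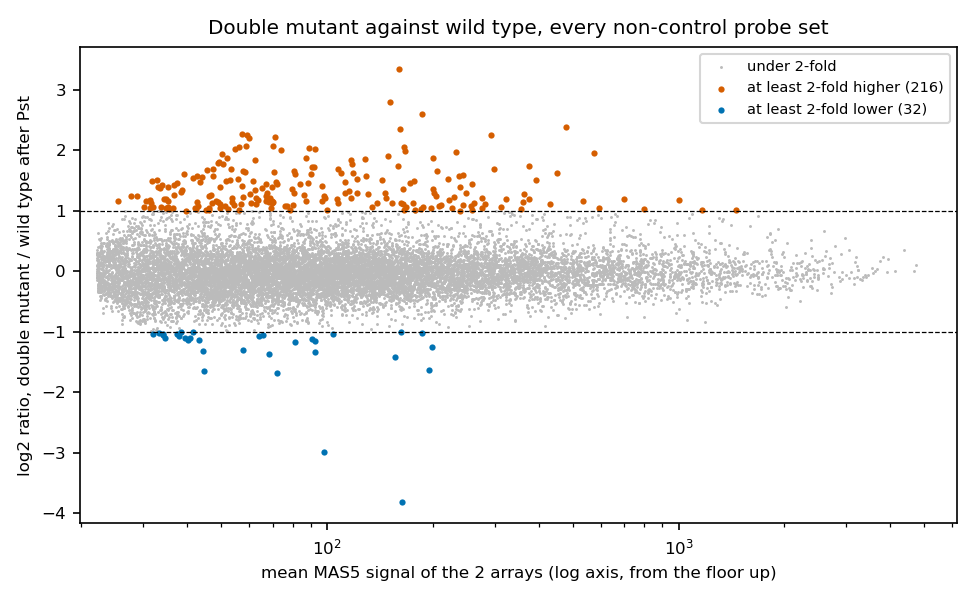
Log2 ratio of the double mutant to the wild type after Pst against the mean MAS5 signal of the 2 arrays (log axis), 1 point per probe set with a mean signal from the floor up; dashed lines mark 2-fold. The 216 higher probe sets (orange) outnumber the 32 lower ones (blue), and the 2 lowest blue points are the unnamed probe sets 261892_at and 253485_at.

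**Figure D3:**
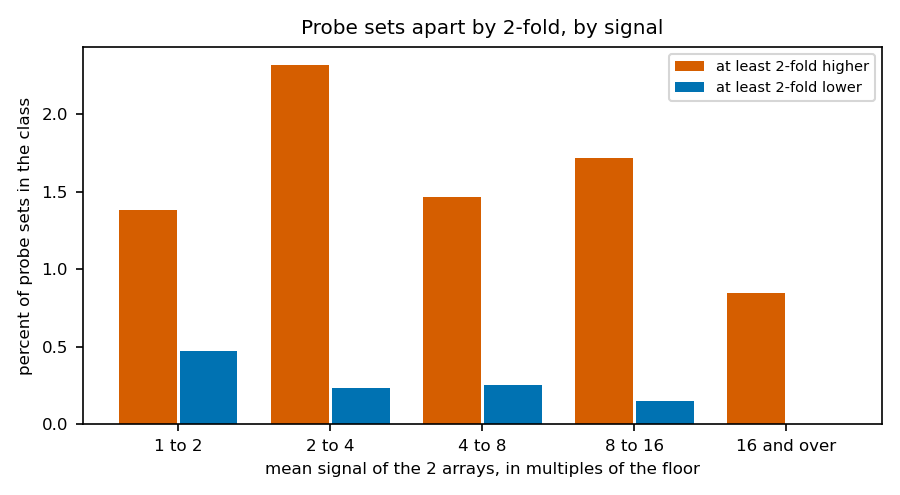
Percent of probe sets at least 2-fold higher (orange) or lower (blue) in the double mutant, in 5 classes of mean signal given as multiples of the floor of 22.1. Higher calls run from 0.847% to 2.32% and exceed lower calls in each class.

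The other Pst arrays show where the called probe sets stood. These probe sets were chosen through the double mutant and wild-type signals that enter the counts, so the counts are a description, and nothing is read from the shares of all probe sets given beside them. The double mutant lay above the wild type, wrky18, wrky40 and wrky53 arrays in 213 of the 216 higher probe sets, where 12.9% of all probe sets did. It lay at least 2-fold above all 4 in 75, where the share of all probe sets was 0.33%. Measured against the median of the wrky18, wrky40 and wrky53 arrays, the double mutant was at least 1.5-fold higher in 207 of the 216 and at least 2-fold higher in 133. Over all probe sets, that comparator gave 164 at least 2-fold higher (0.721%) and 21 lower (0.0923%). The wild type was the lowest of these 5 Pst arrays, ties included, in 86 of the 216. For this count and the 1.5-fold count the share of all probe sets was not computed, so nothing is read from either. Of the lower probe sets, 24 of 32 lay below all 4 arrays, where 14.5% of all probe sets did, but 8 of 32 were at least 2-fold below the median of the 3 other mutants. In 1 it was at least 2-fold below all 4, which is 0.0044% of all probe sets.

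The median ratio of the single mutants lay between the wild type and the double mutant in both sets of called probe sets. It was nearer to the wild type over the higher probe sets and about midway over the lower ones. Over the 216 higher probe sets, the median log2 ratio, always against the wild-type Pst array, was 0.28 in wrky18, 0.34 in wrky40 and 1.27 in the double mutant. Both singles exceeded the wild type in 140 of the 216, 64.8%, against 16.6% of all probe sets. Over the 32 lower probe sets the medians were -0.58, -0.63 and -1.12, and both singles were below the wild type in 26, 81.2%, against 19.8% of all. The wild-type array that chose the probe sets enters each of these ratios. A choice for low wild-type signal tends to place other arrays above it, and a choice for high wild-type signal below it. The shares of all probe sets also include those tied at the floor. Nothing is therefore read from these shares or from the place of the single mutants. On wrky53 the median was -0.01 over the 216 and -0.14 over the 32. That array was below the wild type in 109 of the 216 and in 23 of the 32, against 27.6% of all probe sets. In 18 of the 32 the wild type was the highest of the 5 Pst arrays without wrky60, ties included. The share of all probe sets was not computed for that count, and nothing is read from it. The mock array had medians of 0.48 over the 216 and -0.35 over the 32.

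The higher probe sets were also set against the mock-treated wild type, with the ratio cut at 2-fold. They were chosen for a high double mutant and a low wild-type Pst signal, and the same signals enter these counts. Among all probe sets, those at the floor on both arrays of a ratio count as within 2-fold. The shares of all probe sets are given beside the counts, and nothing is read from the contrast. In 114 of the 216, 52.8%, the double mutant was within 2-fold of the mock array, where 97.2% of all probe sets were. In 101, 46.8%, it was at least 2-fold above the mock array, where 1.89% of all probe sets were. In the remaining probe set it was at least 2-fold below, as were 0.963% of all probe sets. That was AT1G49000, with 353 in the mock sample, 34.7 in the wild type after Pst and 74.03 in the double mutant. The wild type after Pst was at least 2-fold below the mock array in 51 of the 216, against 1.22% of all probe sets, and at least 2-fold above it in 7, against 1.39%.

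Among named genes, 95 of 13286 (0.715%) passed 2-fold upward and 11 (0.0828%) downward, with medians of 2.32-fold and 2.07-fold in these groups. In 14 of the 95 the wild type was at the floor, so their fold is a lower bound. Of the 106 called genes, 58 also passed 2-fold on the same side when set against the median of wrky18, wrky40 and wrky53. With the floor at the 60th percentile 51 kept the call, and with log2 of signal plus the floor value 53 did. The 20 highest and 10 lowest are described with their signals on all arrays, grouped by what the genes are known to encode. Genes with a locus code and no described role are given by their values.

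The first of the 20 highest genes to be described encode enzymes of metabolism. AT1G26380, a FAD-linked oxidoreductase of indole metabolism also called FOX1, had a signal of 291 in the double mutant and 28.5 in the wild type after Pst, a 10.2-fold difference. It had 117 in the mock sample, 70.0 in wrky18, 76.0 in wrky40, 38.3 in wrky53 and 21.4 in wrky60. The double mutant was thus well above every other array, and both singles lay between the double mutant and the wild type. Its log2 ratio was 2.06 against the median of wrky18, wrky40 and wrky53, compared with 3.35 against the wild type. Of the 3 measured genes on the list of camalexin and indole metabolism it was the only 1 to pass 2-fold, and 0 were lower. Its neighbours of the same family had smaller ratios on the floored scale. AT1G26420 had 244 in the double mutant and 143 in the wild type, 1.71-fold apart. AT1G26410 had 37.9 and 3.82, the latter under the floor, and AT1G26390 had 10.4 and 3.27, both under it. For AT1G26420 the mock sample, at 371, was higher than either. The cytochrome P450 gene CYP71B24 had 114 in the double mutant and 26.9 in the wild type, 4.23-fold apart, with 93.7 in the mock sample, 54.1 in wrky18, 39.9 in wrky40, 13.1 in wrky53 and 50.7 in wrky60. Here the double mutant was close to the mock level and the wild type after Pst was not. With the floor at the 60th percentile its log2 ratio was 0.91, under the threshold. AT1G64710, an alcohol dehydrogenase-like gene, had 266 in the double mutant and 64.2 in the wild type, 4.14-fold apart. Its other signals were 77.5 in the mock sample, 104 in wrky18, 74.7 in wrky40, 61.9 in wrky53 and 23.0 in wrky60, all well below the double mutant. AT2G36690, a gene of the 2-oxoglutarate-dependent oxygenase family, had 312 against 98.4, 3.17-fold apart, with 218 in the mock sample, 107 in wrky18, 144 in wrky40, 44.1 in wrky53 and 118 in wrky60. For this gene the mock sample came nearest to the double mutant.

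Others of the 20 encode a glucanase, peroxidases and a dirigent protein. AT4G16260, a beta-1,3-glucanase-like glycosyl hydrolase gene, had 801 in the double mutant and 153 in the wild type after Pst, 5.25-fold apart. It had 38.8 in the mock sample, 327 in wrky18, 296 in wrky40, 115 in wrky53 and 97.2 in wrky60. Every Pst array was above the mock array, the singles lay between the wild type and the double mutant, and the double mutant was 20.7-fold above the mock. The log2 ratio of AT4G16260 was 1.44 against the median of wrky18, wrky40 and wrky53, compared with 2.39 against the wild type. Prx37, a class III peroxidase gene, had 682 in the double mutant and 221 in the wild type, 3.09-fold apart, with 152 in the mock sample, 298 in wrky18, 323 in wrky40, 157 in wrky53 and 242 in wrky60. Its neighbour AT4G08780, a peroxidase gene as well, had 107 and 34.4, 3.11-fold apart, with 16.7 in the mock sample, 34.9 in wrky18, 60.4 in wrky40, 21.6 in wrky53 and 23.2 in wrky60. On both peroxidase probe sets the double mutant was highest and wrky40 second. With the floor at the 60th percentile AT4G08780 had a log2 ratio of 0.82, under the threshold. AT3G13650, a dirigent protein gene, had 123 in the double mutant against 38.9 in the wild type, 3.15-fold apart, and 30.3 to 50.05 on the other 5 arrays.

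The next genes of the 20 encode an EF-hand protein, a TIR-domain protein, an ATPase and proteins with a heavy-metal-associated domain. AT5G39670, a gene for a calcium-binding EF-hand protein, had 137 in the double mutant and 37.1 in the wild type, 3.68-fold apart, with 66.6 in the mock sample, 47.2 in wrky18, 40.2 in wrky40, 50.2 in wrky53 and 55.7 in wrky60. Apart from the double mutant its 6 signals spanned less than 2-fold. AT1G57630, a gene for a protein with a TIR domain, the signalling domain of many plant immune receptors, had 141 and 42.7, 3.31-fold apart. It had 75.03 in the mock sample, 48.5 in wrky18, 28.8 in wrky40, 25.1 in wrky53 and 41.0 in wrky60, so that the single mutants lay near or under the wild type. AT1G43910, an AAA-type ATPase gene, had 81.5 and 25.1, 3.25-fold apart, with 20.4 in the mock sample, 38.8 in wrky18, 31.8 in wrky40, 43.4 in wrky53 and 58.6 in wrky60. All of the mutants were above the wild type for this gene. AT2G35730, a gene for a protein with a heavy-metal-associated domain, had 117 in the double mutant and 25.1 in the wild type, 4.66-fold apart, with 5.24 in the mock sample, 20.6 in wrky18, 41.3 in wrky40, 8.997 in wrky53 and 28.3 in wrky60. AT5G52750, with the same domain, had 164 and 51.0, 3.22-fold apart, with 191 in the mock sample, 65.7 in wrky18, 58.0 in wrky40, 48.1 in wrky53 and 64.1 in wrky60. The first of these was low in the mock sample and the second was highest there. With the floor at the 60th percentile the log2 ratio was 0.95 for AT2G35730 and 0.43 for AT1G43910, both under the threshold.

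**Figure D4:**
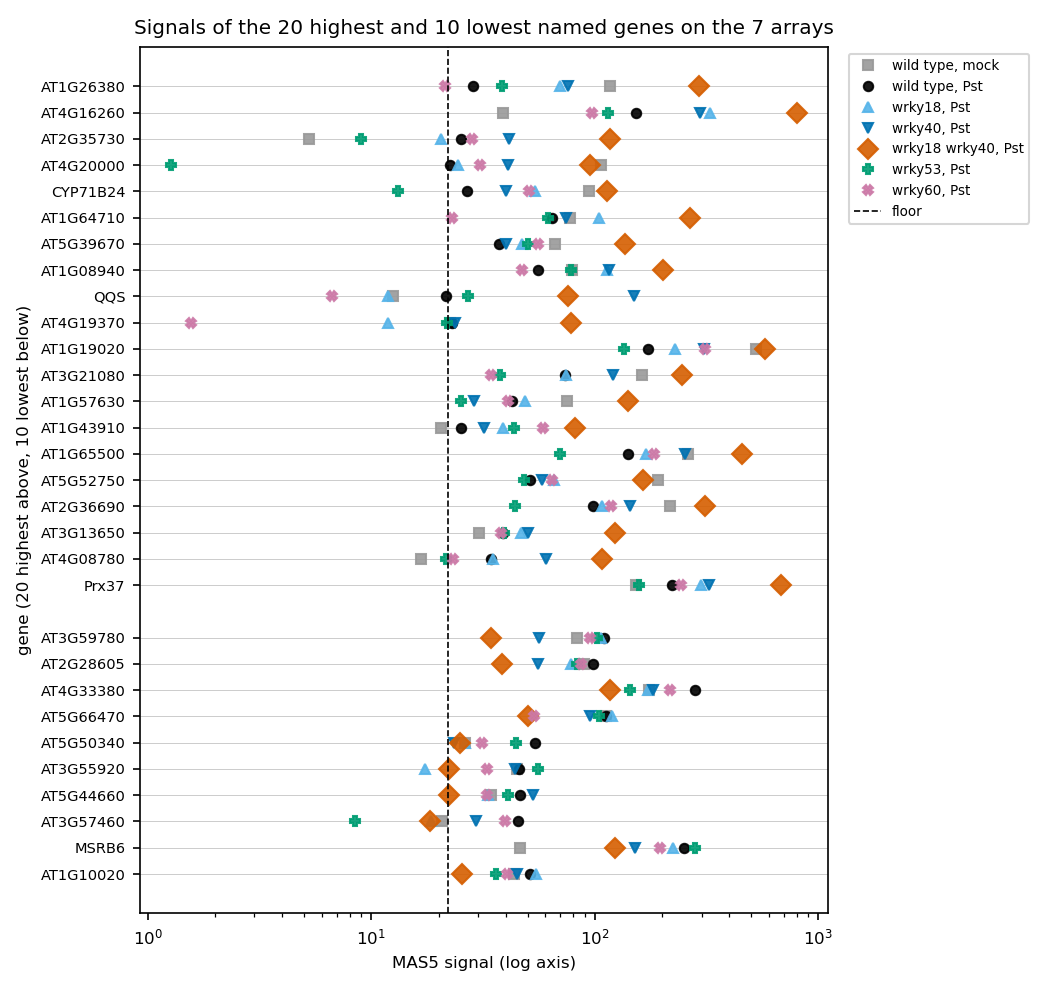
MAS5 signal (log axis) of the 20 highest and 10 lowest named genes on the 7 arrays, 1 symbol per array, with the floor of 22.1 as a dashed line. The double mutant (orange diamonds) is the highest Pst array for 19 of the 20 upper genes, QQS being the exception, where wrky40 has 149.5.

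The other highest genes are given by their values. AT1G08940, a gene of the phosphoglycerate mutase family, had 201 in the double mutant and 55.4 in the wild type, 3.63-fold apart, but 114 in wrky18 and 116 in wrky40, so the singles were also more than 2-fold above the wild type. AT1G08940 was under the threshold, at a log2 ratio of 0.83, against the median of wrky18, wrky40 and wrky53. QQS, a gene of starch metabolism found only in Arabidopsis thaliana, had 76.2 in the double mutant and 21.6, just under the floor, in the wild type. With 149.5 in wrky40, 11.8 in wrky18, 27.0 in wrky53, 12.4 in the mock sample and 6.70 in wrky60, its highest signal was not on the double mutant array. AT4G20000 had 95.4 against 22.6, 4.23-fold apart, with 107 in the mock sample, 24.4 in wrky18, 40.7 in wrky40, 1.27 in wrky53 and 30.7 in wrky60. AT4G19370 had 77.9 against 22.9, 3.40-fold apart, and no more than 23.6 on any other array, which left it near or under the floor everywhere but in the double mutant. AT1G19020 had 579.8 against 173, 3.35-fold apart, and 527 in the mock sample, close to the double mutant, with 227 in wrky18, 306 in wrky40, 135 in wrky53 and 311 in wrky60. AT3G21080 had 245 against 73.4, 3.34-fold apart, with 163 in the mock sample, 73.9 in wrky18, 121 in wrky40, 37.5 in wrky53 and 34.2 in wrky60. AT1G65500 had 455 against 141, 3.23-fold apart, with 262 in the mock sample, 169 in wrky18, 253 in wrky40, 70.0 in wrky53 and 183 in wrky60. In these last 2 genes the mock sample and wrky40 lay between the wild type after Pst and the double mutant. Of the genes just named, 3 lost the call with the floor at the 60th percentile, where the log2 ratio was 0.65 for AT4G20000, 0.36 for AT4G19370 and 0.33 for QQS.

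The lower genes were few and their ratios small, and each of the 10 named here fell under 2-fold in at least 1 alternative. Of the 10, 2 kept the call with the floor at the 60th percentile and 3 against the median of wrky18, wrky40 and wrky53. AT3G59780, a gene for a rhodanese-like protein, had 34.1 in the double mutant and 109 in the wild type after Pst, 3.21-fold apart, with 83.4 in the mock sample, 106 in wrky18, 56.01 in wrky40, 102 in wrky53 and 95.1 in wrky60. AT2G28605, which encodes a PsbP-like protein related to photosystem II, had 38.3 and 98.4, 2.57-fold apart, with 89.5 in the mock sample, 77.9 in wrky18, 55.7 in wrky40, 82.9 in wrky53 and 86.8 in wrky60. In both genes wrky40 was second lowest and wrky18 nearer to the wild type. With the floor at the 60th percentile their log2 ratios were -0.85 and -0.70. AT4G33380 had 117 against 281, 2.39-fold apart, but the wild-type Pst signal was the highest of the 7, since the mock sample had 174, wrky18 173, wrky40 183, wrky53 144 and wrky60 218. Against the median of wrky18, wrky40 and wrky53 its log2 ratio was -0.56, under the threshold. AT5G66470 had 50.1 against 112, 2.24-fold apart, with 112 in the mock sample, 119.6 in wrky18, 95.1 in wrky40, 105 in wrky53 and 53.5 in wrky60. MSRB6, a methionine sulfoxide reductase gene, had 122 against 249, 2.03-fold apart, with 46.5 in the mock sample, 223 in wrky18, 151 in wrky40, 279.6 in wrky53 and 196 in wrky60. All Pst arrays exceeded the mock array for MSRB6, the double mutant least. AT5G50340, AT3G55920, AT5G44660, AT3G57460 and AT1G10020 had wild-type signals of 45.5 to 53.9 and double mutant signals of 18.3 to 25.5, at or near the floor. Their folds were 2.02 to 2.15, that of AT3G57460 being a lower bound. For AT5G50340 and AT3G57460 another Pst array was as low as the double mutant or lower, and for AT3G55920 wrky18 was. Against the median of the 3 other mutants, AT5G50340 had a log2 ratio of -0.06 and AT3G57460 was at the floor on both sides. The lower threshold fell among genes of like size: AT2G29290 at a log2 ratio of -1.001 was counted and AT5G15240 at -0.99 was not. On the higher side psbD at 1.01 was counted and AT4G40080, at 0.999, was not.

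In 4 places both of 2 genes that are next to each other in the gene table were at least 2-fold higher. UGT73B5 and UGT73B4, glycosyltransferase genes on chromosome 2, had signals of 83.2 and 82.7 in the double mutant against 31.3 and 28.8 in the wild type. These are 2.65-fold and 2.88-fold differences, with wrky18 at 31.9 and 20.7, wrky40 at 40.2 and 35.3, and the mock sample at 69.5 and 34.2. Prx37 and AT4G08780 on chromosome 4, described above, were the second pair. The heavy-metal-domain genes AT5G52750 and AT5G52760 on chromosome 5 were the third. AT5G52760 had 64.4 in the double mutant and 18.8 in the wild type, at least 2.92-fold apart, with 46.3 in the mock sample, 16.5 in wrky18, 18.3 in wrky40, 35.3 in wrky53 and 10.9 in wrky60. The fourth pair, on chromosome 3, was AT3G09010, a protein kinase gene with 95.7 against 43.6, and AT3G09020, with 50.5 against 19.2, under the floor. The other named genes within 4 genes of these pairs were mostly under the floor, and none was 2-fold apart; the widest ratio was that of AT3G08980, at 57.4 against 34.2. Neighbours of 1 family can share probe sequence, so how far such pairs were measured independently was not tested. Of these 8 genes, Prx37 and AT5G52750 kept the call when the 60th percentile was the floor. No neighbouring pair was found among the lower genes.

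Gene lists were described by their measured members, those with a mean signal over the 7 arrays at or above the floor. That mean includes the 2 arrays compared, so a gene can count as measured through a high double mutant signal. AT1G26410, the median member of the camalexin list, passed only with the double mutant array counted in. The counts and medians of lists are therefore a description. Over all 7259 measured genes, 91 (1.25%) passed 2-fold upward and 11 (0.152%) downward, 42.7% had a log2 ratio above 0 and the median was -0.04. The lists were short, because many familiar defence genes have no probe set with a single name in the annotation used here: of 24 salicylic acid and PR genes 2 were measured, and of 29 jasmonate genes 4. The 2 salicylic acid genes stayed under 2-fold: GRX480, a glutaredoxin gene, had 102 in the double mutant and 78.7 in the wild type, and SAG101, a partner of EDS1 in immunity, had 36.1 and 31.2. No list was tested, and a list of a few genes says nothing of the pathway as a whole.

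In the cytochrome P450 list, 2 of 10 measured genes were at least 2-fold higher, 0 were lower, and the median log2 ratio was 0.25. The high members were CYP71B genes of 1 stretch of chromosome 3. CYP71B24 (AT3G26230) is described above. CYP71B23 (AT3G26210) had 589.8 in the double mutant and 272 in the wild type, 2.17-fold apart, with 687 in the mock sample, 231 in wrky18, 348 in wrky40, 98.5 in wrky53 and 126 in wrky60. CYP71B22 (AT3G26200) had 402 against 203, just under 2-fold, with 167 in the mock sample, 266 in wrky18, 256 in wrky40, 181 in wrky53 and 207 in wrky60. CYP71B6, on chromosome 2, had 306 against 182, a log2 ratio of 0.75. Further along the same stretch CYP71B26 had a ratio of 0.39 and CYP71B34 one of -0.35, and the named members on either side were under the floor in both samples. CYP71B23 and CYP71B24 were lower in the wild type after Pst than in the mock sample and CYP71B22 was not.

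In the list of UDP-glycosyltransferases, enzymes that attach sugars to small molecules, 4 of 30 measured genes were at least 2-fold higher and 0 lower, with a median of 0.16. Beside UGT73B4 and UGT73B5, UGT71C3 had 95.9 in the double mutant and 41.5 in the wild type, 2.31-fold apart, with 10.5 in the mock sample, 54.4 in wrky18, 44.9 in wrky40, 51.1 in wrky53 and 31.6 in wrky60. UGT71C2 had 46.9 against 22.7, 2.06-fold apart, with 28.9 in the mock sample, 24.4 in wrky18, 37.4 in wrky40, 15.7 in wrky53 and 48.9 in wrky60. Against the median of wrky18, wrky40 and wrky53 the log2 ratios of UGT71C3 and UGT71C2 were 0.91 and 0.94, under the threshold, and 0 of the 4 passed with the 60th percentile as floor. Next came UGT76B1, which glucosylates isoleucic acid and salicylic acid, with 423 against 216, a log2 ratio of 0.97. Of the 30 genes, 17 were above 0 and 13 below, and the lowest, UGT72B3, had a ratio of -0.48. Of 14 glutathione transferases listed, 5 were measured. Among these 5, 0 passed 2-fold in either direction, 4 were below 0 and the median was -0.36. With 1.25% of all measured genes called higher, 0 of 5 is the usual outcome, so no contrast between the 2 lists is drawn. GSTU20 had 404 against 579 and GSTU18 75.1 against 101.

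Calcium sensors and channels had a median of 0.49 over 7 measured genes, 6 above 0, with 1 at least 2-fold higher and 0 lower. The list holds genes with CML and GLR names only, so the EF-hand protein gene AT5G39670 described above is not on it. CML38, a calmodulin-like protein gene, had 92.6 in the double mutant and 41.4 in the wild type, 2.24-fold apart, with 42.4 in the mock sample, 25.02 in wrky18, 49.1 in wrky40, 69.4 in wrky53 and 35.05 in wrky60. The double mutant was highest, followed by wrky53. CML38 was under the threshold, at a log2 ratio of 0.92, against the median of wrky18, wrky40 and wrky53. CML42 had 137 against 83.2, a log2 ratio of 0.72, and CML41 had 44.8 against 29.3, a ratio of 0.61. The glutamate receptor-like gene GLR1.4, at 31.0 against 20.4, had a ratio of 0.49 or more.

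Defensins were the strongest of the ethylene list, where 2 of 3 measured genes passed 2-fold and 0 were lower. PDF1.2b, which encodes a secreted antimicrobial peptide, had 583 in the double mutant and 205 in the wild type, 2.85-fold apart, with 32.8 in the mock sample, 344 in wrky18, 227 in wrky40, 167 in wrky53 and 216 in wrky60. PDF1.2 had 305 against 147, 2.07-fold apart, with 29.1 in the mock sample, 184 in wrky18, 205 in wrky40, 154 in wrky53 and 133 in wrky60. Both were far above the mock sample on all Pst arrays and highest in the double mutant. Against the median of wrky18, wrky40 and wrky53 the log2 ratio was 1.36 for PDF1.2b and 0.73 for PDF1.2, which leaves 1 of 3 past the threshold. The PDF1.2b probe set is of a type that can detect more than 1 transcript, so these 2 may not be independent. EIN3, the transcription factor of the ethylene pathway, had 463 against 514. In the jasmonate list 0 of 4 measured genes passed 2-fold and the median was 0.30. JMT had 219.5 against 162, OPCL1 466 against 373, JRG21 1210.0 against 995 and BSMT1 99.3 against 101.

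In the list of pattern-triggered immunity, the response to conserved microbial molecules, 0 of 6 measured genes passed 2-fold in either direction. PUB24, a ubiquitin ligase gene, had 94.6 in the double mutant and 61.2 in the wild type after Pst, with 108 in the mock sample, 76.0 in wrky18, 54.6 in wrky40, 46.0 in wrky53 and 50.5 in wrky60. BIK1, a receptor-associated kinase gene, had 355 against 234, with 412 in the mock sample, 303 in wrky18, 283 in wrky40, 149 in wrky53 and 271 in wrky60. Both were below the mock sample and above every other Pst array in the double mutant. PUB22 had 422 against 292, PUB23 341 against 257, EFR, the receptor of bacterial EF-Tu, 30.5 against the floor of 22.1, and WRKY22 149.7 against 146.

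Leaf senescence is named in the title of the series, and 3 of the 24 genes listed for it were measured. WRKY6, a transcription factor linked to senescence and defence, had 240.2 in the double mutant and 110.2 in the wild type, 2.18-fold apart, with 189 in the mock sample, 130.1 in wrky18, 149 in wrky40, 64.0 in wrky53 and 70.2 in wrky60. It was the only 1 of 5 measured WRKY genes to pass 2-fold. WRKY6 was under the threshold, at a log2 ratio of 0.88, against the median of wrky18, wrky40 and wrky53. WRKY53, a regulator of senescence, had 95.5 against 107, WRKY47 119.8 against 117 and WRKY20 72.9 against 84.3. SAG101, given above, stayed under 2-fold, and SAG29 was under the floor on all arrays.

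Of the measured abiotic stress genes 0 of 4 passed 2-fold. STZ, a zinc finger repressor gene, had 834 in the double mutant and 449.9 in the wild type, a log2 ratio of 0.89, with 398 in the mock sample, 563 in wrky18, 621 in wrky40, 341 in wrky53 and 241 in wrky60. COR15A, a cold-regulated chloroplast protein gene, had 778 against 1072, COR15B 249.9 against 299.6 and COR47 511 against 489. STZ was thus highest in the double mutant, and COR15A lowest there among the 7 arrays. In the list of folding in the endoplasmic reticulum, 0 of 3 measured genes passed, with BZIP60 at 262 against 194, ATERDJ3B at 319 against 248 and CRT1b at 272 against 273.

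Photosynthesis and growth lists lay slightly below 0. All 7 measured nuclear photosynthesis genes were lower in the double mutant, 0 of them by 2-fold, with a median log2 ratio of -0.22. SBPASE, of the Calvin cycle, had 962 against 1369.8, with 1573 in the mock sample, 1217 in wrky18, 1262 in wrky40, 1342 in wrky53 and 1226 in wrky60. PRK, of the same cycle, had 1053 against 1349.8. On both, the double mutant was the lowest array. Of 11 measured genes for expansins, xyloglucan enzymes and pectin enzymes, which loosen or remodel cell walls, 10 were below 0 and 0 passed 2-fold. Their median was -0.19, and EXPA8, at 61.6 against 93.4, was the lowest. The 4 measured reference genes ranged from -0.22 to 0.29.

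Chloroplast-encoded genes did not follow the nuclear photosynthesis genes in direction, though the difference was not tested. Of 67 measured, 2 were at least 2-fold higher and 0 lower, 41 were above 0 and the median was 0.06. The gene rpl14, for a ribosomal protein, had 523 in the double mutant and 229.6 in the wild type after Pst, 2.28-fold apart, with 503 in the mock sample, 244 in wrky18, 306 in wrky40, 378 in wrky53 and 479.5 in wrky60. The gene psbD, of photosystem II, had 1556 against 773, 2.01-fold apart, with 2156 in the mock sample, 2264 in wrky18, 1122 in wrky40, 1396 in wrky53 and 2155 in wrky60. For psbD the wild type after Pst was the lowest of the 7 arrays and the double mutant was in the middle of them. Against the median of wrky18, wrky40 and wrky53 the log2 ratio was 0.77 for rpl14 and 0.16 for psbD, both under the threshold. In 54 of the 67 genes the wild type after Pst was below the mock sample. The double mutant was above the mock sample in 17 of the 67, so both arrays were mostly below it. The same counts over all measured genes are not given here, and nothing is read from these.

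**Figure D5:**
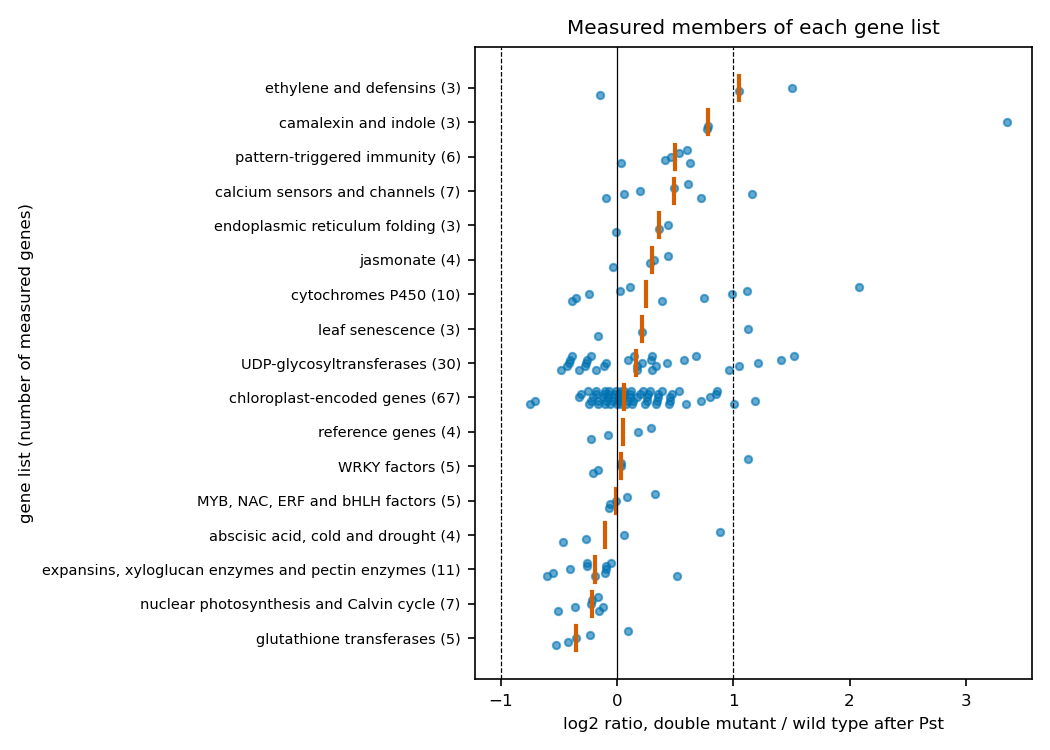
Log2 ratio of the double mutant to the wild type after Pst for each measured gene (blue points, spread vertically only for legibility) of the lists with at least 3 measured genes, with the list median as an orange bar; dashed lines mark 2-fold. Most members lie within 2-fold, and the points beyond it are all on the higher side.

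Genes with more than 1 probe set gave a view of probe error, though not of plant or array error. In 79 genes whose probe sets were all measured, the gap between the highest and lowest log2 ratio of a gene had a median of 0.25 and reached 1.01, for AT2G27900. Of 144 genes with several probe sets, 1, GAT1_2.1, had a called probe set, at a log2 ratio of 1.05, and its other probe set was under the floor in both samples. No named gene was therefore called through 2 probe sets.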

How the data were processed

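One-colour arrays of 7 samples, 1 per group, were compared. The authors deposited a linear signal intensity for each probe set, which MAS5 computed according to the submitters' processing notes, with no version or settings named in them. The 2% trimmed means of the arrays lay at 100.01, so the deposited scaling was kept. The number of arrays limits the precision. The 64 control probe sets were left out. As floor, the 40th percentiles of the arrays were averaged, and calls were made at 2-fold on the log2 scale with no test. Genes come from the platform annotation and the TAIR10.1 gene table (names and gene order only), matched for 13436 probe sets; the brightest probe set of a gene was kept, leaving 13286. Members and lists were chosen with earlier results of these data known. Named genes were the 20 highest and 10 lowest, 2 unnamed probe sets a side, up to 4 members of lists with at least 3 measured genes, genes with more than 1 called probe set, and called neighbours; others, such as UGT76B1 or AT1G26390, were chosen after their values were seen. The pattern for chloroplast-encoded genes was corrected after seeing the table. In 4 lists not described further, 0 measured genes passed 2-fold. These were aliphatic glucosinolates (2 measured), auxin response (2), receptor-like kinases (1) and MYB, NAC, ERF and bHLH factors (5). The kinase list held 1 gene and leaves out the called kinase genes named elsewhere here, so it says nothing of kinases in general. Cytosolic ribosomal proteins matched no name. Promoter motifs were not analysed here. The functions were tested on simulated data. Alternatives were other floors, scalings, fold thresholds and comparators, with Python 3.11.15, numpy 2.4.6, pandas 2.3.3, matplotlib 3.10.9, R 4.3.3 and limma 3.58.1.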

Additional observations from a re-analysis of the deposited data

How the results depend on the processing

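The excess of higher over lower probe sets, 216 against 32, held in direction under each alternative run, while the size of both counts depended on the floor. With the floor at the 25th percentile they were 388 and 175, at the 60th percentile 104 and 11, and with log2 of signal plus the floor value in place of a floor 127 and 9. Restricting to 1 probe set a gene with a single name gave 95 and 11, and to probe sets above 4 times the floor on at least 1 array 140.0 and 15. A 1.5-fold threshold gave 701 and 537, and a 3-fold threshold 54 and 5. Quantile normalization gave 208 and 24, median centring 227 and 31, cyclic loess 250.0 and 28, quantile normalization without wrky60 229 and 29, and, chosen after seeing the data, both arrays at or above the floor 180.0 and 26. Of the 106 called genes, 0 changed sign in the 8 alternatives for single genes. The call was kept by 51 with the higher floor, 53 with the added value, 58 against the median of the other mutants, and 99 to 104 under the 4 other scalings. Of the 20 highest genes, 13 kept it with the higher floor and 19 against the other mutants. Of the 10 lowest, 2 and 3 did. Of 136 list medians, 9 moved by over 0.2, among them that of the camalexin list, from 0.78 to 2.20 with the lower floor, and that of the P450 list, from 0.25 to 0.02 with the higher one; the median of MYB, NAC, ERF and bHLH factors changed sign with scaling. The cause was not tested. No paired analysis was possible because each group holds 1 array.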

Other observations

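Among the other named genes at least 2-fold higher in the double mutant, some are given here that were chosen after their values were seen. The TIR-domain genes AT1G72920 and AT1G72900, which lie close together on chromosome 1, had signals of 129 and 384 in the double mutant against 46.9 and 178 in the wild type after Pst. AT1G72920 had 32.1 in the mock sample, and AT1G72900 had 203. The kinase gene AT1G11050 had 181 against 86.8, and AT5G25930, also a kinase gene, had 238 against 117. AT5G03350, a legume lectin gene, had 148 in the double mutant, 64.5 in the wild type and 133 in wrky18, so that the double mutant hardly exceeded that single mutant. AT5G55450, a lipid transfer protein gene, had 356 in the double mutant, 120.1 in the wild type and 265 in wrky18. OSM34, an osmotin gene, was under the floor on all arrays but that of the double mutant, where it had 49.1. Its fold against the floored wild type was at least 2.23.

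Of the 95 higher genes, 93 lay on the 5 nuclear chromosomes and the other two, rpl14 and psbD, on the chloroplast genome. The share of named genes that were higher was 0.938% on chromosome 1, 0.507% on chromosome 2, 0.588% on chromosome 3, 0.62% on chromosome 4 and 0.738% on chromosome 5, and the differences were not tested.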
